A study of Mus musculus with 18 samples.

Results

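The genes described here are the adult haemoglobin chains and a set of genes of the red cell lineage, 9 genes of the 46983 listed in the count tables. They were taken by name and all 9 were found in both tissues' tables, where hyphens are written as dots: the beta globins Hbb-bs and Hbb-bt (Hbb.bs and Hbb.bt in the files), the alpha globins Hba-a1 and Hba-a2 (Hba.a1 and Hba.a2), Alas2, Car1, Car2, Klf1 and Nfe2. The mice were C57BL/6J males, and RNA was taken from their bone marrow and adipose tissue, with sample titles that read mBMSC for marrow and mAT-MSC VAT for adipose. Within each tissue 5 libraries came from an arm labelled HFD with glutamine and 4 from an arm labelled HFD alone, 18 libraries in 4 groups. All of them carry the HFD label, no transgene or deleted allele is given, and the age of the mice is not stated in the labels used here. Libraries are named by the pair of numbers in their label, whose meaning the labels do not give, and 1 marrow library of the glutamine arm whose numbers match no title is called unnumbered.

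Haemoglobin is a tetramer of paired alpha and beta globin chains, each holding haem, and it fills red cells as they mature. Its genes are switched on in erythroblasts of the marrow by the factors GATA1, KLF1 and NFE2, while haem is supplied by a pathway whose first erythroid step is ALAS2. Mature mouse red cells have lost their nucleus, but young ones (reticulocytes) still carry globin and Alas2 messenger RNA and circulate through every tissue, so globin reads are common in tissue RNA.

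The sequences before the gene starts are shown for the globin families and Alas2, since these genes parted from each other in marrow. They are the 250 bases upstream of each RefSeq start (GRCm38.p6), written on the gene's strand, with capitals for 2 kinds of motif searched on both strands. The GATA motif was taken as the form AGATAA with its variant form AGATAG, or as the form TGATAA with its variant form TGATAG. The CACCC motif was taken as CCACACCC, CCACGCCC, CCCCACCC or CCCCGCCC. In the GENCODE M21 annotation used for the gene spans given further on, these genes reach upstream of the RefSeq starts, so parts of the windows lie inside those spans. Hbb-bs lies at chr7:103827929-103828178 (minus strand), Hbb-bt at chr7:103813924-103814173 (minus strand), Hba-a1 at chr11:32283422-32283671 (plus strand) and Alas2 at chrX:150547167-150547416 (plus strand).
Hbb-bs: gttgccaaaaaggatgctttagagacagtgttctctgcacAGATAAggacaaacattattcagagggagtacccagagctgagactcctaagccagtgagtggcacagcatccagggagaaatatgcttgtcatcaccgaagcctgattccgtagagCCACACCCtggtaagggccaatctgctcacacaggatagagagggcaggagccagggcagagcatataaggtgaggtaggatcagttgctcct
Hbb-bt: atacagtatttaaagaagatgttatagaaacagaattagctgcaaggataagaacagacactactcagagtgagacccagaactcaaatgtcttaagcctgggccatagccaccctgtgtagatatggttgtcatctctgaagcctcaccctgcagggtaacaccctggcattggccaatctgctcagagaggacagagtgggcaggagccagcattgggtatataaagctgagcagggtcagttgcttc
Hba-a1: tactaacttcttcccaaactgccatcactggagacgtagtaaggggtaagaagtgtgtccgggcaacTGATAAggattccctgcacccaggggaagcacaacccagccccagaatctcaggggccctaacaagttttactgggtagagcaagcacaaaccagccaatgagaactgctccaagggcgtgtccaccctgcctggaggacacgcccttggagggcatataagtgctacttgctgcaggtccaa
Alas2: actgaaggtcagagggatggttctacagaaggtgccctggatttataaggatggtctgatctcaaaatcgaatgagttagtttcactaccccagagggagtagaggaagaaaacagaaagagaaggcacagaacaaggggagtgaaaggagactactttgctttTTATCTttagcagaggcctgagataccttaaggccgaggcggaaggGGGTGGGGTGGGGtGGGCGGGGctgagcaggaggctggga

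A GATA form began at base -210 from the start in Hbb-bs, at -183 in Hba-a1 and at -86 in Alas2, and a CACCC form began at -93 in Hbb-bs. The Alas2 window held 3 CACCC forms, at -40, -35 and -26, all on the other strand, as its GATA form was. The Hbb-bt window held neither form, which says only that these letters are not in it. Of 32851 promoters in the RefSeq table, 26.5% held a GATA form and 27.4% a CACCC form over the same length. The Hba-a2 window, offset by 3 bases, was identical to that of Hba-a1 over 247 of 247 bases and is not printed. In a comparison without gaps the 2 beta globin windows matched at 127 of 249 bases. Promoters were matched for 6 of the 9 genes, and Car1, Car2 and Nfe2 had no entry.

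The globin copies can be told apart only in part. In the GENCODE M21 annotation (GRCm38) Hbb-bs spans chr7:103826534-103828096 and Hbb-bt spans chr7:103812524-103813996, both on the minus strand. Hba-a1 spans chr11:32283511-32284465 and Hba-a2 spans chr11:32296489-32297298, both on the plus strand. The transcripts of Hba-a1 and Hba-a2 aligned over 537 identical bases and 1 mismatch, and those of Hbb-bs and Hbb-bt were 93.9% identical. Of all windows of 157 bases, the length of a read, 47.7% of the Hba-a1 transcript and 65.1% of the Hba-a2 transcript also occurred in the other copy, as did 58.1% of Hbb-bs and 50.1% of Hbb-bt. How reads from such stretches were counted is not given in the sources used here, so values of single copies are uncertain and each family is also read as a sum. Alas2 lies on the X chromosome, Car1 and Car2 lie beside each other on chromosome 3, Klf1 is on chromosome 8 and Nfe2 on chromosome 15.

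Libraries held 13970788 to 37984603 counts in marrow and 35871168 to 59529238 in adipose. Each count is a read near the 3′ end of a transcript, so levels are given as CPM, a fixed scaling of a gene's share of all gene counts in its library, and need no correction for length. Genes with at least 100 counts numbered 1755 to 7323 per marrow library and 11361 to 14469 per adipose library. The labels do not say that libraries came from separate mice, so the p-values cover the scatter among these libraries alone, part or all of which may be technical. Marrow stroma markers, among them Cxcl12 and Col1a1, summed to 67012 to 295439 CPM in marrow and 9783 to 17882 CPM in adipose, and adipose progenitor markers, among them Ly6a and Dcn, to 1602 to 4751 CPM in marrow and 14900 to 22520 CPM in adipose. In RNA taken from many cells together, fewer cells of a type and less RNA per cell cannot be told apart.

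Beta globin RNA was abundant in every library of both tissues. Hbb-bs, the main adult beta chain, was the highest of the 9 genes by median level in all 4 groups. In marrow it stood at 3669.9, 2447, 5076, 4189.9 and 3162 CPM in the glutamine libraries 4_6, 10_12, unnumbered, 18_20 and 25_27, against 2219.9, 3339, 9461 and 8292 CPM in the HFD libraries 1_3, 5_11, 14_17 and 23_28. In adipose it stood at 5426, 5951, 1449, 1349 and 2699 CPM in the glutamine libraries 4_6, 10_12, 13_15, 18_20 and 25_27, against 4277, 12674, 2259 and 3709.7 CPM in the HFD libraries. The high ends belonged to HFD libraries, 14_17 and 23_28 in marrow and 5_11 in adipose, and the arms and the tissues overlapped. Hbb-bt, the second adult beta chain, ran from 849.6 to 1787 CPM in marrow glutamine libraries and from 1243 to 2781 CPM in marrow HFD libraries. In adipose its range was 312 to 1418 CPM in glutamine libraries and 489 to 3117 CPM in HFD libraries.

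The 2 beta copies kept a narrow ratio. Hbb-bs exceeded Hbb-bt by 1.76 to 6.67 times in marrow and by 3.83 to 6.78 times in adipose. The highest ratio of each tissue was in the HFD library labelled 23_28. Without it, marrow ran from 1.76 to 3.40 and adipose from 3.83 to 5.19.

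Alpha globin RNA was present in every adipose library but came and went between marrow libraries. Hba-a1 stood at 1099, 114, 4.80, 675 and 291 CPM in the marrow glutamine libraries 4_6, 10_12, unnumbered, 18_20 and 25_27, against 2.53, 2.56, 2944 and 2.88 CPM in the HFD libraries 1_3, 5_11, 14_17 and 23_28. Hba-a2, its near-identical copy, stood at 508, 3.87, 14.6, 637 and 2.76 CPM in the same glutamine libraries, against 189, 1.32, 1596 and 1.39 CPM in the HFD libraries. The copies did not always appear together: with 100 counts taken as presence, 3 marrow libraries held both, 2 held Hba-a1 alone, 2 held Hba-a2 alone and 2 held neither. The libraries with neither were HFD 5_11 and 23_28, in which Hbb-bs was at 116061 and 166994 counts. Wide swings between marrow libraries were not particular to alpha globins. Nfatc1 ran from 0.298 to 953 CPM there, Egfl7 from 0.390 to 717 CPM and Nfe2l2 from 1.16 to 748 CPM, while Fth1 stayed between 759 and 3705 CPM. The share of all genes with such swings was not counted.

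In adipose all 9 libraries held both alpha copies. Hba-a1 stood at 543, 898, 216, 134 and 267 CPM in glutamine libraries, against 251, 1183, 305 and 216 CPM in HFD libraries. Hba-a2 stood at 399, 652, 94.5, 96.9 and 233 CPM in glutamine libraries, against 213, 794, 202 and 145 CPM in HFD libraries. The arms overlapped for both genes, and HFD library 5_11 was the highest for both. The ratio of Hba-a1 to Hba-a2 stayed between 1.14 and 2.29 in adipose, whereas in marrow it ran from 0.0134 in HFD library 1_3 to 105 in glutamine library 25_27.

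**Figure D1:**
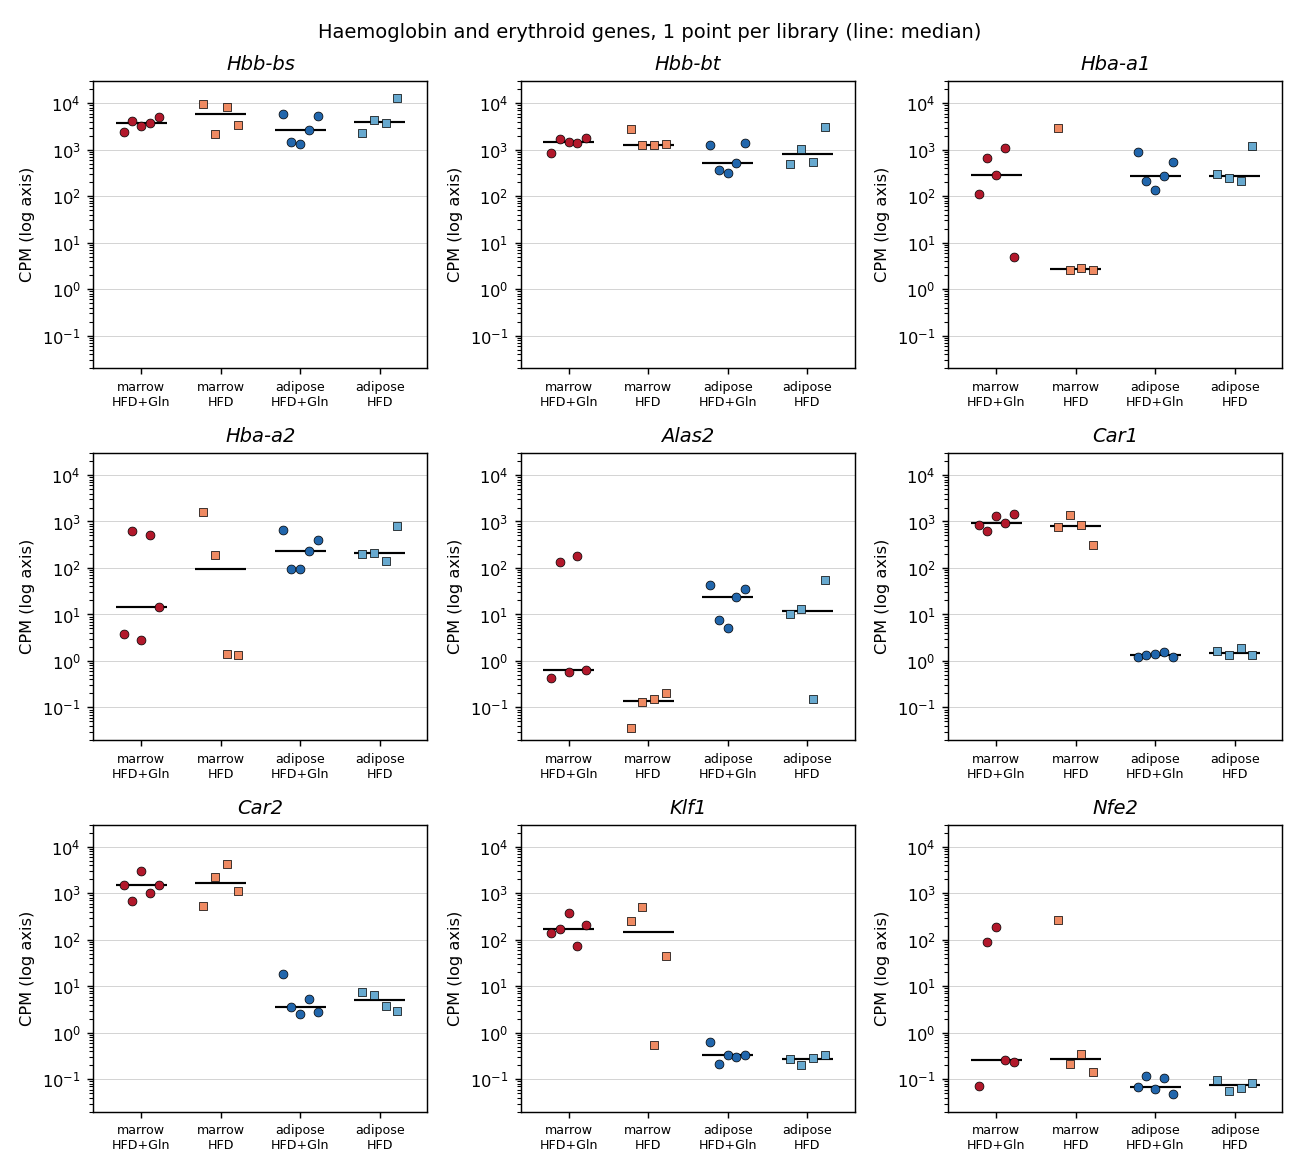
Level of each of the 9 genes in CPM (vertical log axis) in the 4 groups along the horizontal axis, with 1 point per library and a line at the group's median. Hbb-bs, Hbb-bt, Car1 and Car2 were high in every marrow library, Hba-a1, Hba-a2, Alas2 and Nfe2 were spread over several powers of 10 there, and Car1, Car2, Klf1 and Nfe2 were low in every adipose library.

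The balance between the 2 chains therefore differed in its spread. The ratio of beta to alpha globin counts was 3.16, 28.0, 353, 4.48 and 15.8 in the marrow glutamine libraries 4_6, 10_12, unnumbered, 18_20 and 25_27, against 18.2, 1194, 2.7 and 2233 in the marrow HFD libraries 1_3, 5_11, 14_17 and 23_28. In adipose it was 7.27, 4.66, 5.86, 7.21 and 6.44 in glutamine libraries, against 11.5, 7.99, 5.42 and 11.8 in HFD libraries. Marrow spanned both ends, with 6 of 9 libraries above all adipose libraries and 3 below them. On the log2 scale, of CPM + 1 for each family, the ratio averaged 5.26 ± 3.58 (SD, n = 9) in marrow and 2.85 ± 0.455 (SD, n = 9) in adipose. That difference of 2.41 did not pass an exact permutation test over libraries, two-sided (p = 0.0740). It passed when glutamine library 4_6 (2.86, p = 0.0231), glutamine library 18_20 (2.79, p = 0.0333) or HFD library 14_17 (2.88, p = 0.0186) was left out, by the same exact test, and these are the 3 marrow libraries with both alpha copies. Without the 2 marrow libraries with the fewest genes at 100 counts, HFD 23_28 and the unnumbered one, the difference was 1.16 (p = 0.274, exact test).

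**Figure D2:**
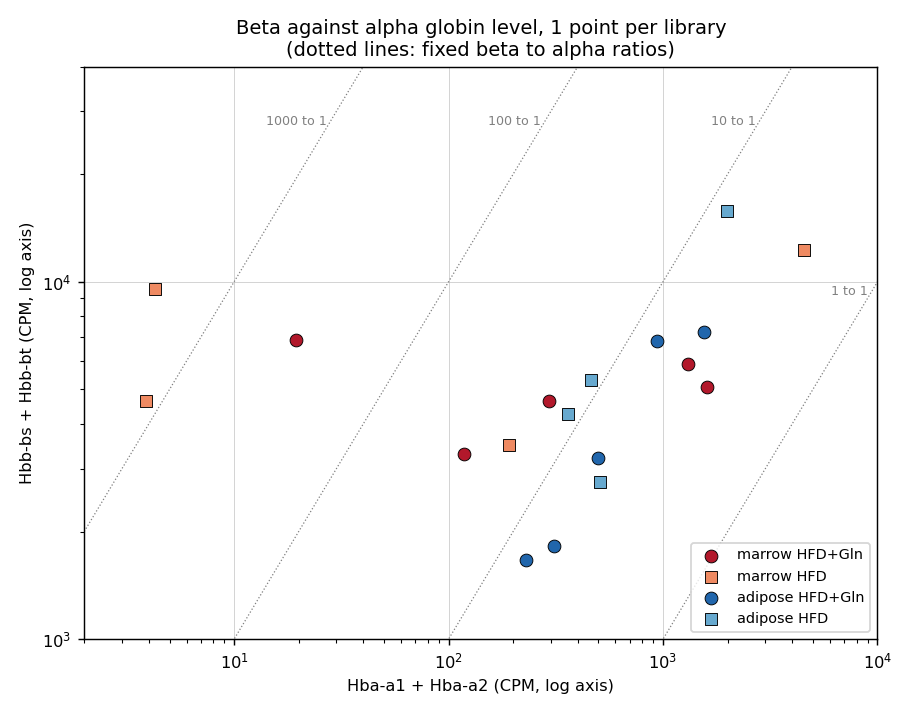
Summed beta globin level against summed alpha globin level in CPM (both axes logarithmic), 1 point per library, circles for glutamine and squares for HFD arms, with dotted lines at fixed beta to alpha ratios. Adipose libraries lie between ratios of 4.66 and 11.8, while marrow libraries run from 2.7 to 2233.

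The 4 adult globins together made up 0.341% to 0.719% of all counts in marrow glutamine libraries and 0.367% to 1.68% in marrow HFD libraries. In adipose they made up 0.189% to 0.877% in glutamine libraries and 0.326% to 1.78% in HFD libraries. Relative to library totals the tissues did not separate: the mean log2(CPM + 1) was 12.62 ± 0.718 (SD, n = 9) in marrow and 12.25 ± 1.03 (SD, n = 9) in adipose, a difference of 0.36 (p = 0.397, two-sided exact permutation test). The call depends on the scaling, since the same test on library sizes scaled by trimmed means of M values (TMM) gave 2.23 (p = 0.000740, exact). Taken alone, alpha globins differed by -2.0 (p = 0.131, exact), opposite in sign to the sum.

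The embryonic and other globin genes were nearly absent. Of 7 in the files (Hbb-y, Hbb-bh0, Hbb-bh1, Hbb-bh2, Hba-x, Hbq1a and Hbq1b), all stood at 0 in every marrow library and 5 stood at 0 in every adipose library. Hba-x, the embryonic alpha-like chain, reached 3.66 CPM (173 counts) in adipose glutamine library 25_27.

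Alas2, the erythroid enzyme of the first step of haem synthesis, was seen in 2 of 9 marrow libraries and 8 of 9 adipose libraries at 100 counts or more. Its marrow counts were 4170, 6, 11, 4097 and 18 in the glutamine libraries 4_6, 10_12, unnumbered, 18_20 and 25_27, against 5, 7, 1 and 3 in the HFD libraries 1_3, 5_11, 14_17 and 23_28. Both libraries that held it also held both alpha globins, but HFD library 14_17, with the highest alpha globin level of all (4541 CPM), had 1 Alas2 count. In adipose it stood at 35.6, 42.3, 7.57, 5.16 and 23.9 CPM in glutamine libraries, against 13.4, 53.8, 10.3 and 0.154 CPM in HFD libraries 1_3, 5_11, 14_17 and 23_28. The arms overlapped, and 1 adipose library, HFD 23_28, stood far below the rest with 7 counts beside 16387 alpha globin counts.

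Within adipose, alpha globins varied with beta globins and with Alas2 across libraries, and beta globins with Alas2 by rank alone. Summed alpha and beta globins correlated on the log2(CPM + 1) scale (Pearson r = 0.905, p = 0.000568; Spearman rho = 0.850, p = 0.00607; exact permutation over 9 libraries). Without the 2 libraries farthest from the median alpha level, glutamine 10_12 and HFD 5_11, r was 0.811 (p = 0.0234, exact). Alpha globins and Alas2 gave r = 0.774 (p = 0.00611) and rho = 0.9 (p = 0.00203, both exact), and without the same 2 libraries r was 0.643 and no longer passed the test (p = 0.103, exact). Beta globins and Alas2 gave r = 0.573 (p = 0.0950) and rho = 0.8 (p = 0.0138, both exact), and r = 0.373 (p = 0.438, exact) without glutamine 18_20 and HFD 5_11. These are 3 relations in 1 family, and after Benjamini-Hochberg adjustment the exact p for r were 0.00170, 0.00917 and 0.0950, and those for rho 0.00911, 0.00608 and 0.0138. With 5 and 4 libraries in the arms, no correlation is reported within an arm, and none was tested in marrow.

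Car1 and Car2 encode cytosolic carbonic anhydrases, which interconvert carbon dioxide and bicarbonate; Car1 is a red cell enzyme and Car2 is also used by osteoclasts to acidify bone. Car1 stood at 908, 821, 1439, 631 and 1293 CPM in marrow glutamine libraries, against 1363, 319, 768 and 826 CPM in marrow HFD libraries. In adipose it stood at 1.22 to 1.59 CPM in glutamine libraries and 1.34 to 1.92 CPM in HFD libraries. Car2 stood at 1035, 1544, 1529.8, 692 and 2956 CPM in marrow glutamine libraries, against 2286, 1124, 529 and 4374 CPM in marrow HFD libraries. In adipose Car2 ran from 2.50 to 18.6 CPM in glutamine libraries and from 2.90 to 7.49 CPM in HFD libraries. Every marrow library lay above every adipose library for both genes, while the arms overlapped in both tissues. Of 15203 genes tested, 32 (0.21%) had every marrow library above every adipose library, and 2425 (16%) had every marrow library below.

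The marrow genes were not at 0 in adipose. Car1 had 48 to 87 counts per adipose library, which is 0.0221% to 0.0400% of its summed marrow counts, and Klf1 had 11 to 37 counts, or 0.0213% to 0.0715%. Nfe2 had 2 to 6 counts (0.0127% to 0.0382%) and Car2 104 to 1110 (0.0252% to 0.269%). Where these reads came from was not tested.

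Klf1 and Nfe2 encode transcription factors of the erythroid lineage: KLF1 binds CACCC elements of the adult beta globin promoter, and NFE2, shared with megakaryocytes, pairs with small MAF proteins. Klf1 stood at 74.4, 141, 206, 172 and 375 CPM in marrow glutamine libraries, against 504, 44.2, 248 and 0.546 CPM in the marrow HFD libraries 1_3, 5_11, 14_17 and 23_28. Only HFD library 23_28, at 11 counts, lacked it, although its Hbb-bs was the second highest in marrow. Nfe2 had 6, 1, 4, 2730 and 5657 counts in the marrow glutamine libraries 4_6, 10_12, unnumbered, 18_20 and 25_27, against 8, 5, 7286 and 7 in the HFD libraries 1_3, 5_11, 14_17 and 23_28. It was thus present in 3 of 9 marrow libraries, spread over both arms, and all 3 also held Klf1. In adipose Klf1 ran from 0.215 to 0.622 CPM in glutamine libraries and from 0.204 to 0.335 CPM in HFD libraries, and Nfe2 from 0.0477 to 0.117 CPM in glutamine libraries and from 0.0555 to 0.0968 CPM in HFD libraries.

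The order of levels differed between tissues. In marrow the medians over 9 libraries ran from Hbb-bs (3669.9 CPM) through Car2 (1529.8), Hbb-bt (1405), Car1 (826), Klf1 (172), Hba-a1 (114), Hba-a2 (14.6) and Alas2 (0.429) to Nfe2 (0.258), and each gene's range overlapped that of its neighbour. In adipose the order was Hbb-bs (3709.7 CPM), Hbb-bt (547), Hba-a1 (267), Hba-a2 (213), Alas2 (13.4), Car2 (3.68), Car1 (1.35), Klf1 (0.297) and Nfe2 (0.0672). There the ranges of neighbours were apart between Hba-a2 and Alas2, Car2 and Car1, Car1 and Klf1, and Klf1 and Nfe2. With 100 counts as presence, 4 of the 9 genes were present in all marrow libraries and 5 in some, while 5 were present in all adipose libraries, 1 in some and 3 in none. Of all genes, 1755 to 7323 were present per marrow library and 11361 to 14469 per adipose library. The share of all genes present in only some libraries was not counted.

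The tissue comparison asked which of these genes differed between marrow and adipose. Of the 9 genes, 6 were called higher in marrow and 0 lower, by edgeR's quasi-likelihood test at an adjusted p under 0.05, against 11.2% called higher and 40.5% called lower among 15203 genes tested. The called genes were Car1 (log2 fold change 11.24 ± 0.684 SE, adjusted p = 2.81e-10), Car2 (10.31 ± 0.778, 1.44e-08), Klf1 (11.08 ± 1.24, 3.89e-06), Nfe2 (11.40 ± 2.12, 0.000152), Hbb-bt (2.50 ± 0.504, 0.000359) and Hbb-bs (2.03 ± 0.459, 0.00105), with edgeR values throughout. Hba-a1 (2.20 ± 1.12, edgeR adjusted p = 0.101), Hba-a2 (1.80 ± 1.12, 0.182) and Alas2 (-1.12 ± 1.14, 0.417) were not called. The median of the 9 changes was 2.50, beside -1.43 over all genes tested. Nfe2, at 2 to 6 counts in adipose and high in 3 marrow libraries, passed the count filter through marrow libraries alone, so the filter favoured its call, and its fold rests on few adipose counts; limma-voom gave 6.66 and the replicate block 6.25. Klf1 rests on 11 to 37 adipose counts per library.

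The beta globin calls depend on how libraries are scaled. With library totals alone the change was 0.08 for Hbb-bs (edgeR adjusted p = 0.883) and 0.62 for Hbb-bt (0.241). With relative log expression factors it was 5.93 and 6.38. The median over all genes moved with the scaling, to -3.17 with totals, 0.89 with upper-quartile factors and 1.94 with relative log expression. Relative to that median Hbb-bs stood at 3.46 with TMM factors, 3.25 with totals, 4.00 with relative log expression and 4.94 with upper-quartile factors. Of all genes, 1708 were higher and 6150 lower in marrow with TMM, 6524 and 2465 with relative log expression, 5144 and 3222 with upper-quartile factors, and 389 and 8098 with totals. Car1, Car2, Klf1 and Nfe2 were called higher under all 4 scalings.

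Single libraries decided some alpha globin and Nfe2 values. Without marrow HFD library 14_17, Hba-a1 was called lower in marrow (-2.04, edgeR adjusted p = 0.0430) and Hba-a2 stood at -0.02 (0.995). Nfe2 no longer passed the count filter without glutamine library 18_20 or 25_27, and without HFD library 14_17 it stood at 7.17 (edgeR adjusted p = 0.000360). Without HFD 23_28 and the unnumbered glutamine library together, 7 genes were called higher, Hba-a1 among them (2.48, edgeR adjusted p = 0.0474). DESeq2 called 7 as well, both alpha globins included, beside 27.4% of all genes called higher, and gave no adjusted p for Alas2 and Nfe2.

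**Figure D3:**
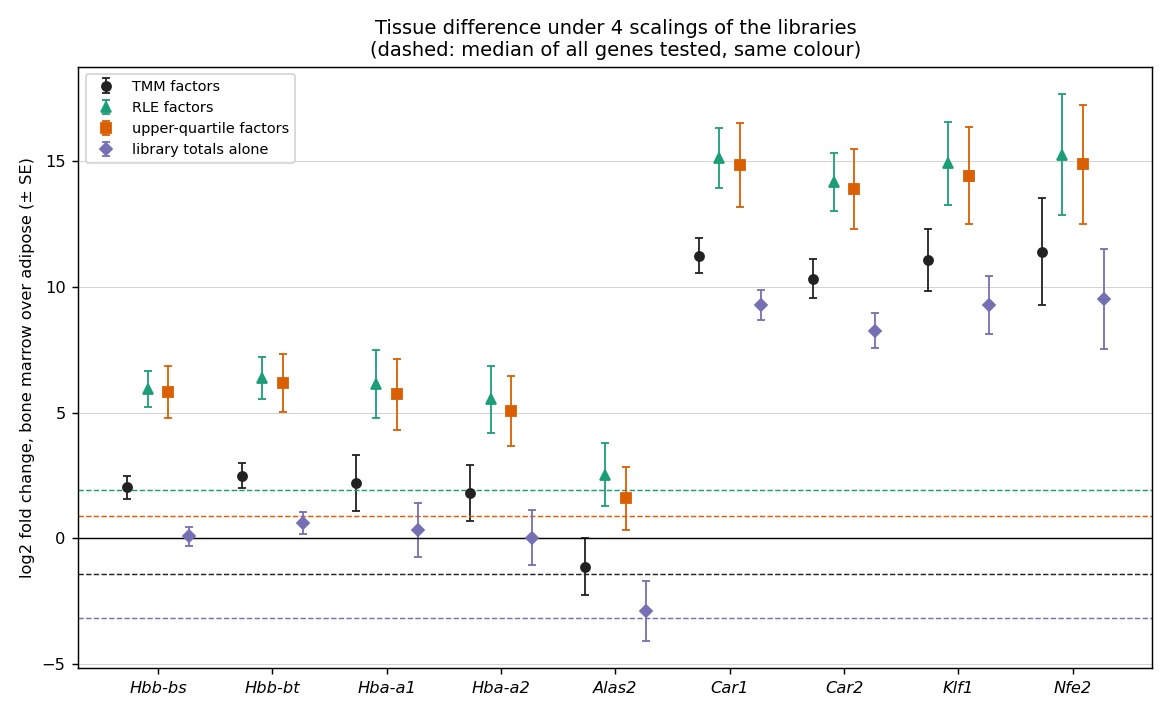
Log2 fold change of each gene, bone marrow over adipose, with its standard error (vertical axis) under 4 ways of scaling the libraries, and the median of all genes tested as a dashed line of the same colour. Car1, Car2, Klf1 and Nfe2 stay far above 0 throughout, the 4 globins reach 0.03 to 0.62 with library totals alone, and Alas2 changes sign between scalings.

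Glutamine was compared with HFD alone within each tissue, the question the series title raises for obese mice. In marrow 8 of the 9 genes passed the count filter (Nfe2 did not) and 0 were called by edgeR, beside 8 of 6041 genes tested (0.132%). An unadjusted p under 0.05 was met by 2 of the 8, beside 1127 of all genes (18.7%): Hbb-bs at -1.45 ± 0.715 (log2 glutamine over HFD ± SE, edgeR unadjusted p = 0.0421, adjusted p = 0.243) and Alas2 at 7.96 ± 3.18 (edgeR unadjusted p = 0.0122, adjusted p = 0.197). Alas2 was also the only one of the 9 whose arms did not overlap in CPM, beside 3.77% of genes tested, but the separation rests on 6 to 18 counts in 3 glutamine libraries against 1 to 7 counts in 4 HFD libraries. Fitted fold changes from such low counts vary with the prior count used. DESeq2 called Alas2 (7.17, adjusted p = 0.000191) and no other of the 9, beside 12% of all genes. The edgeR fit of both tissues likewise called Alas2 alone (8.33, adjusted p = 0.0146), beside 25.8% of all genes.

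The other marrow values were -0.83 ± 1.09 for Hbb-bt, -2.05 ± 1.45 for Hba-a1, -2.25 ± 1.72 for Hba-a2, -0.13 ± 1.28 for Car1, -1.18 ± 1.01 for Car2 and -0.24 ± 2.03 for Klf1 (edgeR, log2 ± SE). The alpha globin values turn on 1 library: without HFD 14_17 Hba-a1 stood at 6.45 (edgeR adjusted p = 0.301) and Hba-a2 at 1.60 (0.851). The median of the 8 was -1.01, beside -0.22 over all genes. Summed globins differed by -0.36 on the log2(CPM + 1) scale (p = 0.524, two-sided exact permutation test over 126 splits, smallest possible p 0.00794), from 12.46 ± 0.454 (SD, n = 5) in glutamine and 12.82 ± 1.00 (SD, n = 4) in HFD libraries. Without HFD library 14_17 the difference was 0.04 (p = 0.893, exact), and for alpha globins alone it was 1.99 (p = 0.421, exact).

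In adipose 8 of the 9 genes passed the filter (Nfe2 did not), and 0 were called by edgeR, as were 0 of 15114 genes (percent called 0). An unadjusted p under 0.05 was met by 0 of the 8 tested and by 624 of all genes (4.13%), and DESeq2 called 31 genes (0.205%), with 0 of the 9 among them. Values ran from -0.80 ± 0.521 for Hbb-bs to 0.37 ± 1.28 for Klf1 (edgeR, log2 ± SE), with a median of -0.23 beside -0.02 over all genes. No gene of the 9 had arms without overlap, beside 1.66% of genes tested. Summed globins averaged 11.97 ± 1.03 (SD, n = 5) in glutamine and 12.61 ± 1.06 (SD, n = 4) in HFD libraries on the log2(CPM + 1) scale, a difference of -0.65 (p = 0.381, two-sided exact permutation test). Without HFD library 5_11 it was -0.15 (p = 0.821, exact).

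The glutamine change in marrow minus that in adipose was called for 1 of the 9 genes, Alas2 at 8.38 ± 2.57 (log2 ± SE, edgeR adjusted p = 0.0440), beside 11.9% of 15203 genes. Over all genes, 0 were called with relative log expression factors, and likewise with upper-quartile factors. The Alas2 call was lost under relative log expression (7.82, adjusted p = 0.0559), under upper-quartile scaling (7.28, 0.0759) and in 14 of 18 fits that left out 1 library (edgeR adjusted p 0.0532 to 0.0870). The marrow side of it rests on the counts of 1 to 18 described above and on the glutamine libraries 4_6 and 18_20. The other 8 genes ran from -1.20 ± 2.19 for Hba-a2 to 0.43 ± 0.858 for Car1. Without marrow HFD library 14_17, Hba-a1 reached 6.98 and was called (edgeR adjusted p = 0.0477).

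**Figure D4:**
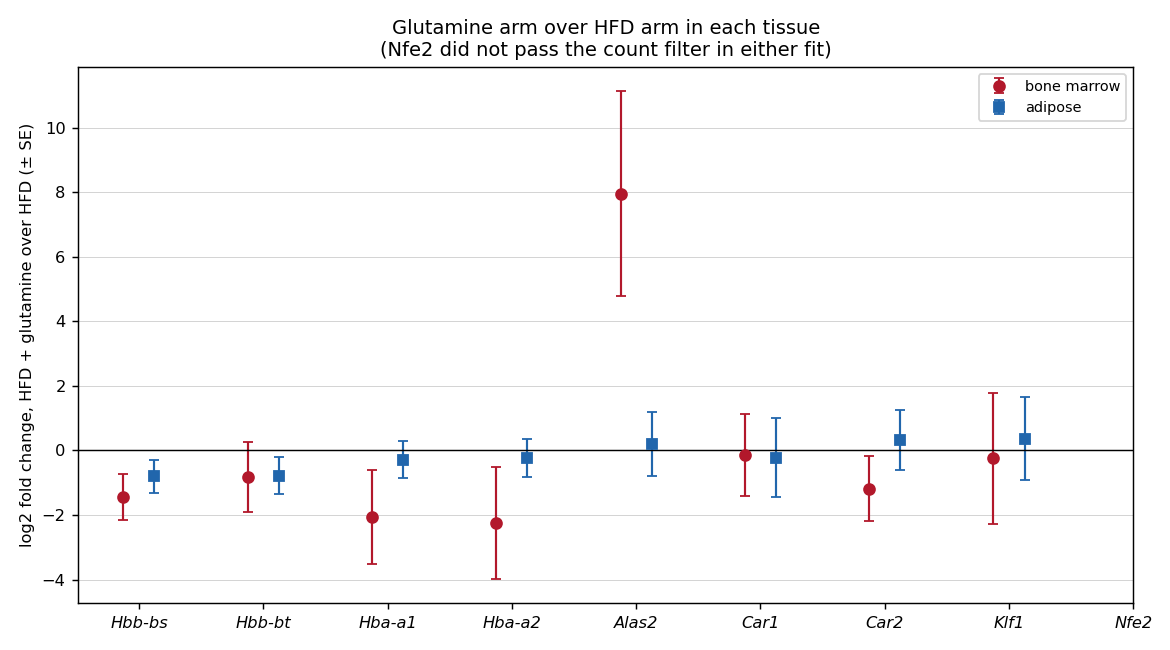
Log2 fold change, HFD with glutamine over HFD, with its standard error (vertical axis) for each gene in bone marrow and in adipose. Adipose values lie between -0.80 and 0.37, and the marrow value of Alas2, 7.96, stands apart with an SE of 3.18.

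Other genes of the red cell lineage were counted in 4 lists. Of 54 members tested, edgeR called 32 higher in marrow and 5 lower, beside 11.2% and 40.5% of all genes. The list medians were 3.77 for haem synthesis and mitochondrial iron and 8.36 for the red cell membrane. They were 2.74 for erythroid transcription factors and 3.63 for maturation and iron uptake, beside -1.43 over all genes. With library totals alone 24 members were higher and 7 lower, with limma-voom 20 and 4, and with relative log expression factors 47 and 0. Of all 15203 genes, 389 were higher and 8098 lower with totals, 378 and 4085 with limma-voom, and 6524 and 2465 with relative log expression. With counts under 100 set to 0, 12 of 51 members were higher and 5 lower, beside 109 and 7071 of 13437 genes. Without the 2 thinnest marrow libraries 33 of 55 members were higher and 5 lower, beside 1669 and 6641 of 16253 genes. The list medians were above 0 in every setting run, with lowest values of 0.15 for transcription factors and 0.39 for maturation and iron uptake. Zero is no fixed reference here, since the median over all genes moved with the setting. It was -5.42 with counts under 100 set to 0 and 1.98 with DESeq2.

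Among haem synthesis genes 7 of 13 were called higher and 1 lower. Cpox, a late step of the pathway, ranged from 36.9 to 1611 CPM in marrow and 18.6 to 47.1 CPM in adipose (6.06 ± 0.789, edgeR adjusted p = 4.12e-06), and Tmem14c, a porphyrin carrier, from 149.6 to 1634 CPM in marrow and 54.9 to 139 CPM in adipose (4.22 ± 0.599, 7.61e-06). The mitochondrial iron importer Slc25a37 was higher by 4.19 ± 0.974 (edgeR adjusted p = 0.00136). Alas1, the enzyme of the same step as Alas2 in all cells, was the member called lower, at -3.53 ± 0.912.

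Among red cell membrane genes 11 of 15 tested were called higher and 3 lower. Ermap, an erythroid adhesion receptor, reached 0.571 to 1192 CPM in marrow and 0.259 to 1.10 CPM in adipose (11.28 ± 1.45, edgeR adjusted p = 3.97e-06). Rhd, of the Rhesus complex, differed by 10.80 ± 1.37 and Add2, an adducin of the membrane skeleton, by 10.48 ± 1.26. Kel had 2 to 10 and Rhag 2 to 12 counts per adipose library. They passed the count filter mainly through marrow libraries, so the filter favoured a higher call of them. The members called lower were Gypc (-4.08 ± 0.953), Tmod1 (-4.54 ± 1.10) and Icam4 (-8.76 ± 2.75), and none was with relative log expression factors. Icam4 had 0 counts in every marrow library and at least 100 in 2 adipose libraries, and Tmod1 had 0 to 5 counts per marrow library. Both passed the count filter through adipose libraries alone, so the filter favoured their calls.

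Of 10 erythroid transcription factor genes tested, 5 were called higher and 1 lower. Gata1, the master factor of the lineage, differed by 10.66 ± 1.60 (edgeR adjusted p = 1.33e-05) and its partner Tal1 by 6.84 ± 1.42. Bcl11a, a repressor of embryonic globins, differed by 8.05 ± 1.53. Zbtb7a, another such repressor, ranged from 0.829 to 287 CPM in marrow and 99.5 to 157 CPM in adipose and was not called (1.59 ± 0.802, edgeR adjusted p = 0.0988). Gata2 was the member called lower (-3.26 ± 1.13).

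Of 16 maturation and iron uptake genes tested, 9 were called higher and 0 lower. Hemgn, an erythroid nuclear protein, differed by 9.54 ± 1.28 (edgeR adjusted p = 4.83e-06), the transferrin receptor Tfrc by 6.30 ± 0.956 and the biliverdin reductase Blvrb by 4.90 ± 0.642. The peroxiredoxin Prdx2, abundant in red cells, differed by 3.80 ± 0.707 and the nuclear exporter Xpo7 by 4.65 ± 0.949. Within each tissue, 0 of the 42 members tested in marrow and 0 of the 52 tested in adipose were called for glutamine by edgeR. In marrow DESeq2 called 4 of the 42, 2 in each direction, beside 12% of all genes, and the edgeR fit of both tissues called 7 higher and 1 lower of 54, beside 25.8%.

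The on and off pattern of single libraries differed between lists. HFD library 14_17, highest in alpha globins, was the lowest marrow library for the haem synthesis list (459 CPM summed) and for the transcription factor list (276 CPM). HFD library 23_28, with 86 alpha globin counts and 11 Klf1 counts, was the highest for the red cell membrane list (3833 CPM), the transcription factor list (2426 CPM) and the maturation list (5701 CPM). The unnumbered glutamine library was the lowest for the membrane list (407 CPM). HFD 23_28, the unnumbered library and HFD 14_17 had 1755, 1831 and 2244 genes at 100 counts or more, the fewest of all 18 libraries.

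Genes of other cells that use some of the 9 were also counted. The megakaryocyte and platelet list, relevant because Nfe2 also acts there, summed to 0.533 to 385 CPM in marrow and 52.9 to 254 CPM in adipose. Of 15 listed, 7 were tested, with 1 called higher in marrow and 5 lower, beside 11.2% and 40.5% of all genes. The highest marrow sum, 385 CPM in HFD library 5_11, was mostly Gp5, at 309 CPM. Pf4 and Gp1bb were at or under 0.286 CPM in every marrow library, and Tubb1 stood at 0 in both tissues. Gp1bb, at 0 to 3 counts per marrow library, passed the count filter through adipose libraries alone, so the filter favoured a lower call of it. In the 3 marrow libraries that held Nfe2 the list summed to 101.4 and 1.04 CPM (glutamine 18_20 and 25_27) and 12.7 CPM (HFD 14_17). The osteoclast list, relevant to Car2, summed to 62.1 to 998 CPM in marrow and 271 to 429 CPM in adipose. Acp5, Atp6v0d2 and Itgb3 were called lower in marrow and 0 of 8 tested higher, beside 40.5% and 11.2% of all genes. Atp6v0d2 had 1 to 6 and Itgb3 0 to 7 counts per marrow library. Both passed the count filter through adipose libraries alone, so the filter favoured their calls. With relative log expression factors 5 of the list were higher and 2 lower, beside 6524 and 2465 of 15203 genes. The highest marrow Car2 level, 4374 CPM in HFD library 23_28, stood beside 258 CPM of the osteoclast list.

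Neutrophil genes were high in marrow, with 11 of 12 called higher and sums of 2968 to 55713 CPM in marrow and 56.8 to 299.6 CPM in adipose. Of endothelial genes, 8 of 9 were called lower in marrow, with sums of 3.97 to 722 CPM in marrow and 637 to 2374 CPM in adipose. Of macrophage genes 5 of 9 were called lower and 1 higher, beside 40.5% and 11.2% of all genes, with sums of 225 to 1607 CPM in marrow and 258 to 1583 CPM in adipose. The marrow sums were mostly Lyz2, with a mean of 744 CPM beside a mean sum of 787 CPM. Csf1r and C1qa had at least 100 counts in 1 marrow library each, and in all 9 adipose libraries. Adgre1 had 0 to 4 and C1qc 1 to 7 counts per marrow library. Adgre1 and C1qc passed the count filter through adipose libraries alone, so the filter favoured a lower call of them. HFD library 23_28 had the highest sum in marrow for the neutrophil list and for the endothelial list. Its endothelial sum of 722 CPM was nearly all Egfl7, at 717 CPM, and 1 of the 9 endothelial genes had at least 100 counts there. The part of these cells in the results on the 9 genes was not tested.

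**Figure D5:**
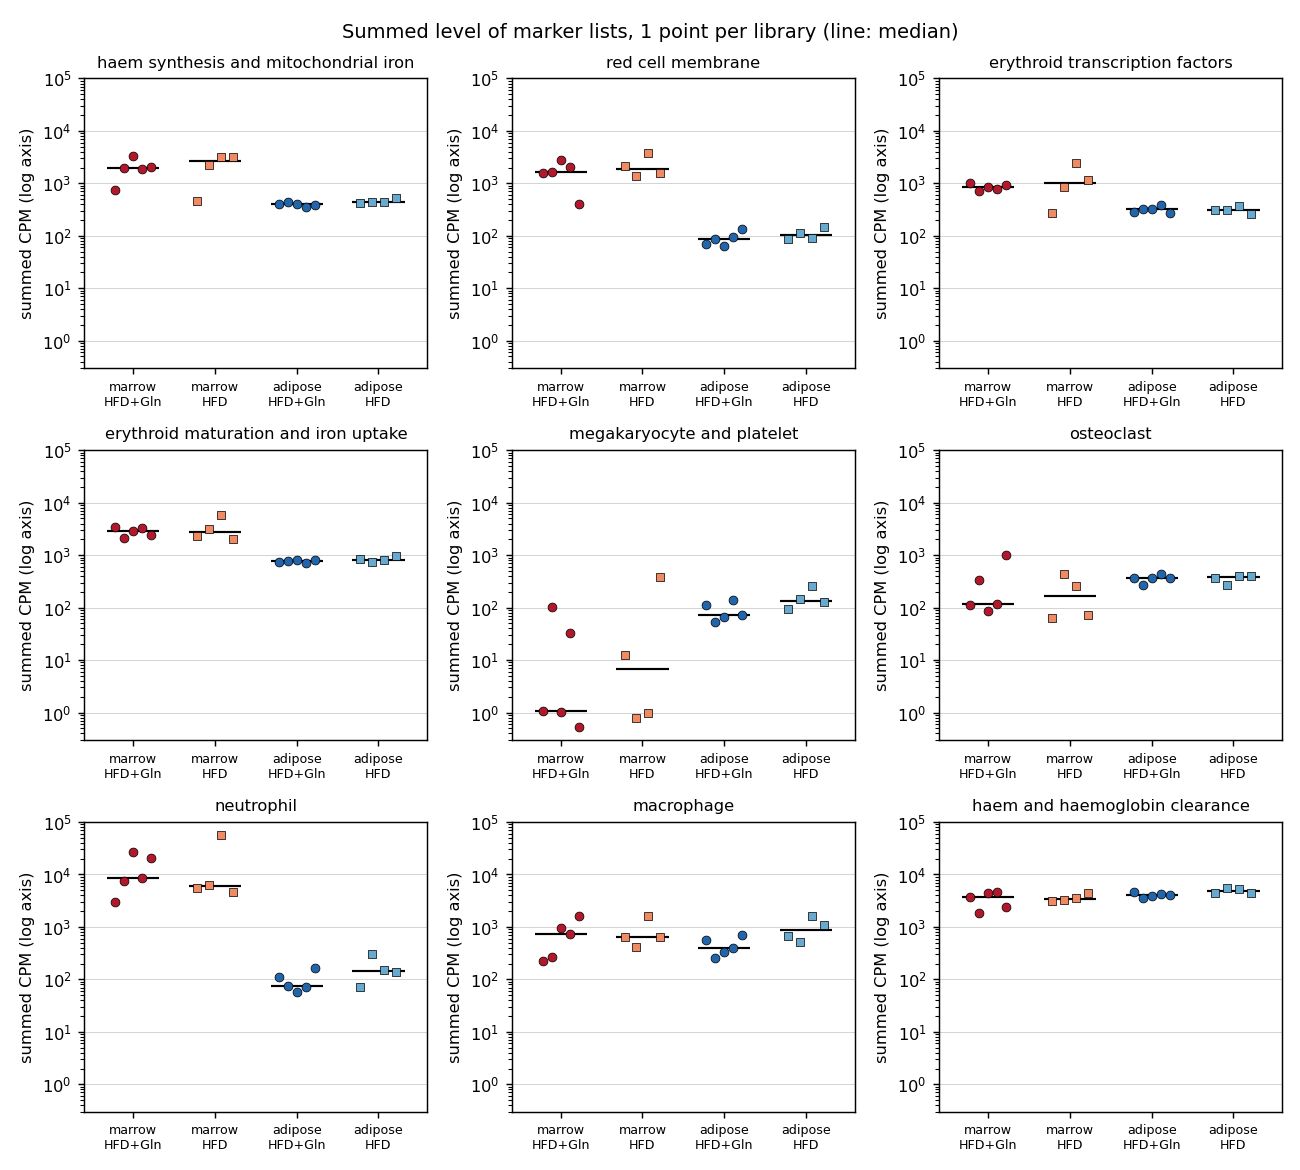
Summed CPM of 9 marker lists (vertical log axis) in the 4 groups along the horizontal axis, 1 point per library with a line at the median. Every marrow library lies above every adipose one for the red cell membrane list, at 407 CPM or more against 149.9 CPM or less, and for haem synthesis genes only HFD library 14_17, at 459 CPM, lies among the adipose libraries.

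Of 10 genes tested that take up or break down haem and haemoglobin, 3 were called higher and 4 lower in marrow. Of all genes 11.2% were called higher and 40.5% lower, the latter being close to the share here. Hp, the plasma haemoglobin binder haptoglobin, was higher (4.78 ± 0.713, edgeR adjusted p = 1.28e-05) and so was the ferritin heavy chain Fth1 (1.46 ± 0.324, 0.000900). The Fth1 call depends on TMM scaling. As a share of counts Fth1 was lower in marrow, with a mean of 2422 CPM beside 3373 CPM in adipose. Hmox1, which breaks down haem, was lower (-5.13 ± 0.799, edgeR adjusted p = 2.03e-05), as was the haemoglobin scavenger receptor Cd163 (-6.09 ± 1.11, 0.000120). Hmox1 had 1 to 55 counts per marrow library. Cd163 had 0 to 2 and passed the count filter through adipose libraries alone, so the filter favoured its call. With relative log expression factors the counts were 6 higher and 0 lower, beside 6524 and 2465 of 15203 genes, so the counts depend on the scaling.

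Of 8 other carbonic anhydrases tested, Car3 was called higher in marrow (3.85 ± 0.798, edgeR adjusted p = 0.000472), beside 11.2% of all genes. The 6 called lower, beside 40.5% of all genes, included Car4 (-5.99 ± 0.824) and the mitochondrial Car5b (-6.06 ± 0.838). Car4 had 1 to 12 and Car5b 0 to 4 counts per marrow library. Car5b passed the count filter through adipose libraries alone, so the filter favoured its call. Of 8 partners and relatives of NFE2, none was called higher and 2 lower, beside 11.2% and 40.5% of all genes. The small MAF gene Maff stood at 1.43 ± 1.35 (edgeR adjusted p = 0.379), Nfe2l2 at 0.92 ± 1.04 (0.463) and Nfe2l1 at 0.31 ± 1.02 (0.809). In mean CPM these genes were lower in marrow, at 85.8, 127 and 56.7 beside 126, 214 and 158 in adipose. With relative log expression factors 6 of these 8 were called higher and 0 lower, beside 6524 and 2465 of 15203 genes.

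The genes most like the summed globins across libraries were named by Spearman's rho of log2(CPM + 1) over 9 libraries, with ties broken by Pearson r, as a description of libraries that share depth and composition. In marrow, of 7229 genes with a mean of at least 10 CPM, these were Timeless (rho 0.950), Tex261 (0.850) and Tmcc2 (0.850). In adipose, of 8980 genes, they were Folr2, Rilpl2 and Iqcb1, each at 0.933. Among the 9 genes themselves, Hbb-bs had a rho of 0.950 with the sum in marrow and 1 in adipose, where it is most of the sum. Alas2 had a rho of -0.07 in marrow and 0.8 in adipose.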

How the data were processed

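Libraries were made from 30 ng of RNA with a kit that reads the 3′ end of transcripts, and read 1 alone (157 bases) was used, per the labels' protocols. Each deposited table gives raw counts by gene, in whole numbers, which the authors left without normalization, judging by whole values that sum to unequal totals. FastQC 0.12.1, STAR 2.7.10b, HTSeq 0.11.3 and GRCm38 are named per the submitters' processing notes. For the annotation, strand setting and treatment of duplicate or multiply mapped reads the sources used here give nothing, and no molecular identifiers are named.

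All 18 libraries were used. 1 marrow column whose number pair is in no title was placed in the glutamine arm by its name. No row lacked a gene name. Each tissue was fitted on its own 9 libraries, and both tissues in 1 fit of 4 groups, with edgeR 4.0.16 in R 4.3.3 (filterByExpr, TMM factors, quasi-likelihood F test, two-sided, Benjamini-Hochberg over all genes tested, threshold 0.05). The SE of a log2 fold change is its size divided by the square root of F. Summed globins were compared by exact permutation over libraries of log2(CPM + 1). Promoters are from RefSeq, and their motifs were searched by script.

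The 9 genes and all lists were chosen with earlier results of these data known. Named are all 9, and list genes are named from the 3 with the highest mean CPM and up to 3 called ones with the smallest p. Alas1, Gypc, Tmod1, Icam4, Gata2 and Tubb1 were named after their values were seen. Of 178 list genes 175 were in the files. Other settings were totals alone, upper-quartile or relative log expression factors, library sizes without globins, 2 other count filters, limma-voom (limma 3.58.1), DESeq2 1.42.0, copies summed, single arms, pseudocounts of 0.5 and 10, a replicate block, and each library left out in turn. After the data were seen, 2 more were added: counts under 100 set to 0, and the 2 thinnest marrow libraries left out. The edgeR steps were tested on simulated counts.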

Additional observations from a re-analysis of the deposited data

Results flagged for a closer look

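Of 56 groups of 4 or 5 libraries tested for a value far from the rest, 10 held one. The critical values give about 1 in 20 by chance for normally distributed values, which CPM and ratios need not be. Single genes and their sums were also counted separately, so the 10 cannot be set against that rate. Of the 10, 5 came from marrow HFD library 14_17, with 2781 CPM of Hbb-bt, 2944 CPM of Hba-a1, 1596 CPM of Hba-a2, 260.2 CPM of Nfe2 and 4541 CPM of summed alpha globins. Adipose HFD library 5_11 stood apart with 1183 CPM of Hba-a1, 794 CPM of Hba-a2 and 1977 CPM of summed alpha globins. Adipose glutamine library 10_12 stood apart with 18.6 CPM of Car2, and the unnumbered marrow glutamine library with a beta to alpha ratio of 353. The glutamine change of Alas2 differed between the tissues by 8.38 on the log2 scale, by the interaction term of edgeR (adjusted p = 0.0440), and its marrow side rests on 1 to 18 counts in 7 of 9 libraries.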

How the results depend on the processing

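Of 846 fold changes of the 9 genes under other settings, 739 kept their direction and side of the threshold, 73 changed sign, 23 lost a call and 11 gained one. The cause was not tested. Summed globins, marrow over adipose, gave 2.23 with TMM-scaled sizes and -2.0 for alpha globins alone, and 0.19 to 0.60 with 1 library left out; glutamine over HFD in marrow gave 1.99 for alpha globins alone and -0.69 to 0.041 with 1 library left out, the only positive value being without HFD 14_17. The beta to alpha ratio gave 1.71 to 2.88 with 1 library left out and 1.16 without the 2 thinnest marrow libraries. In log2 units, marrow over adipose, counts under 100 set to 0 gave -0.88 for Hbb-bs, -0.28 for Hbb-bt, -0.45 for Hba-a1 and -0.68 for Hba-a2. Limma-voom gave -0.53 for Hba-a1 and -0.85 for Hba-a2, and Alas2 gave 2.54 with RLE (relative log expression) factors, 1.60 with upper-quartile factors and 3.63 in glutamine libraries only. With 1 library left out, Hba-a1 ran from -2.04 to 2.73 and Hba-a2 from -0.020 to 2.30.

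For glutamine in marrow, 1 gene (Alas2) was called by DESeq2 and 1 by the joint fit. Hba-a1 gave 3.49 with limma-voom; Car1 gave 0.33 with totals alone, 0.016 with the stricter filter and 0.33 with counts under 100 set to 0; Klf1 gave 1.57 with upper-quartile factors, 0.0039 with sizes without globins and 0.60 with limma-voom. With 1 library left out, Hba-a1 ran from -2.81 to 6.45, Hba-a2 from -2.92 to 1.60, Car1 from -0.78 to 0.19, Car2 from -1.63 to 0.20 and Klf1 from -0.69 to 0.31. In adipose Alas2 gave -0.052 in the joint fit and Car2 -0.44 with limma-voom; with 1 library left out, Hbb-bt ran from -1.12 to 0.17, Hba-a1 from -0.78 to 0.68, Hba-a2 from -0.74 to 0.66, Alas2 from -0.22 to 1.53 and Car2 from -0.54 to 0.54. Over all genes, glutamine calls in marrow were 8 lower, against 416 higher and 311 lower by DESeq2, 2590 and 1336 in the joint fit, 100 and 102 with no filter and 0 with RLE factors.

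For the difference between tissues, 0 of the 9 were called with RLE or upper-quartile factors, no count filter, DESeq2, limma-voom, counts under 100 set to 0 or the 2 thinnest marrow libraries left out, and 0 to 1 with 1 library left out. Hbb-bs gave 0.11 with totals and 0.22 with counts under 100 set to 0. Hbb-bt gave -0.13 with RLE factors and with DESeq2, -0.50 with upper-quartile factors, -0.018 with limma-voom and -0.28 without the 2 thinnest. Limma-voom gave 2.78 for Hba-a1, 1.40 for Klf1 and 0.18 for Nfe2, and Car1 gave -0.11 with upper-quartile factors and -0.023 without the 2 thinnest. With 1 library left out, Hbb-bs ran from -0.997 to 0.17, Hbb-bt from -0.66 to 0.79, Hba-a1 from -2.30 to 6.98, Hba-a2 from -2.52 to 1.81, Alas2 from 6.61 to 8.80, Car1 from -0.25 to 0.64, Klf1 from -0.88 to 0.18 and Nfe2 from -1.59 to 7.07.

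Libraries of both tissues share number pairs, but over 8 pairs and 9262 genes their deviations correlated by -0.0142 to 0.0358 and 2 of 8 matched best with their own number. With the replicate block, Hba-a1 gave -1.10 and Hba-a2 -1.26 for marrow over adipose; for the difference between tissues 0 were called, with -0.25 for Hbb-bt, 6.06 for Hba-a1, 0.29 for Hba-a2, 0.25 for Klf1 and 3.09 for Nfe2. The paired difference of summed globins was 0.20 (p = 0.719, exact, higher in marrow in 4 of 8 pairs). Values of Alas2, Nfe2 and alpha globins in some marrow libraries, and of Car1, Klf1 and Nfe2 in adipose, rest on under 100 counts, which limits their precision; the part of depth in them was not tested.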
